A study of Mus musculus with 8 samples.

Results

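The loci described here are 4 imprinted domains of the mouse genome, represented by 6 listed genes of 55413 annotated genes: Plagl1 on chromosome 10, Grb10 with its neighbour Ddc and Zrsr1 with its host gene Commd1 on chromosome 11, and Rasgrf1 on chromosome 9. The genes were chosen by name from knowledge of imprinting, with earlier results of these data known, and the 44 genes around them were added by position. The addition of 1, 2 or 3 methyl groups to lysine 9 of histone H3, written H3K9me1, H3K9me2 and H3K9me3, had been mapped by chromatin immunoprecipitation and sequencing (ChIP-seq) in wild-type mouse embryonic fibroblasts (MEFs), cells cultured from mouse embryos. The 8 samples were 2 replicates each of input DNA and of the 3 marks. The wild-type control of the study was a conditional Eset1 line (E1c) that was derived from 1 sorted clone and carries a tamoxifen-inducible Cre, with Eset1 not deleted, so the maps describe 1 cell line and not a population of primary fibroblasts. Each mark had 1 list of enriched regions for both replicates, with positions on a 750 bp grid and no score or read count, and no list of the input was analysed. A value below is therefore present or absent, or a percent of bases covered, in 1 map per mark. It has no replicate error, and no comparison between groups could be tested. The paper states a read depth per sample, but the lists give no reads per region. The lists also cannot tell the maternal from the paternal allele. The cell type could not be checked against marker genes, since the lists hold no expression values.

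Imprinted genes are expressed from the allele inherited from one parent. The choice is kept by a germline differentially methylated region, usually a CpG island, that carries DNA methylation on the allele from one parent and escapes the demethylation of the early embryo. The zinc finger protein ZFP57 binds the letters TGCCGC when their CpG is methylated and recruits KAP1 (Trim28) and the H3K9 methyltransferase SETDB1, the product of Eset1, so H3K9me3 is a known mark of the methylated allele. Plagl1 encodes a zinc finger transcription factor transcribed from the paternal allele at an internal CpG island. Grb10 encodes an adaptor protein that restrains growth. It is expressed from the maternal allele in most tissues and from an internal island on the paternal allele in neurons. Ddc encodes aromatic L-amino acid decarboxylase, which makes dopamine and serotonin, and is imprinted in the developing heart. Zrsr1 is a retrocopy of a splicing factor gene, lies in an intron of Commd1 and is expressed from the paternal allele. Commd1 encodes a protein of copper handling and NF-kB control. Rasgrf1 encodes a guanine nucleotide exchange factor for Ras, and its methylated region lies upstream of the gene on the paternal allele, followed by a tandem repeat.

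Sequences of 4 CpG islands of these loci are printed as examples (GRCm38, plus strand of the genome, matches to TGCCGC in capitals, which read GCGGCA where the match is on the minus strand). Each stretch is the one outside annotated UTRs that holds the most matches, of 300 bases where such a stretch existed and of 250 bases for Zrsr1. The first is in the internal island of Plagl1 and holds 4 matches, the next is in the island at the 5′ end of Grb10 and holds 3, and the stretch upstream of Rasgrf1 holds 6. The last is in the island at the Zrsr1 start and holds 2. The Plagl1 and Grb10 stretches are annotated as start sites and intron, the Rasgrf1 stretch is intergenic, and the Zrsr1 stretch is in the coding part of its exon. The first 3 islands carried H3K9me3 and neither other mark, and the Zrsr1 island carried no mark. The internal island of Grb10, also with H3K9me3 and neither other mark, is not printed. It held 4 matches, but its stretch of 300 bases outside annotated UTRs held 0. The printing of the 5′ end island does not mean that it is the methylated region of Grb10. DNA methylation was not measured here.
Plagl1 internal island, chr10:13091025-13091324: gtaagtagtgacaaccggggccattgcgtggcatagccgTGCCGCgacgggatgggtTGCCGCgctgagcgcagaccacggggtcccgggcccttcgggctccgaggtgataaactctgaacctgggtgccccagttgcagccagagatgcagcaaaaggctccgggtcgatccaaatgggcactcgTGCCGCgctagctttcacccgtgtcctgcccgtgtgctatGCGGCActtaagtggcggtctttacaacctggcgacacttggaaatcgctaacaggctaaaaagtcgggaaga
Grb10 5′ end island, chr11:12036871-12037170: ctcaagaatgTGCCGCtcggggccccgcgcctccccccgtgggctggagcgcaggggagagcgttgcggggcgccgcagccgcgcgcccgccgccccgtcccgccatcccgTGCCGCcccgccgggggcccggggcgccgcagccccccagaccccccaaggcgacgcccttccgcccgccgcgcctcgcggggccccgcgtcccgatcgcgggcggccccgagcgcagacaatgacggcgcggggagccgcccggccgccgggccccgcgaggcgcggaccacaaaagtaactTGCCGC
Rasgrf1 upstream island, chr9:89879594-89879893: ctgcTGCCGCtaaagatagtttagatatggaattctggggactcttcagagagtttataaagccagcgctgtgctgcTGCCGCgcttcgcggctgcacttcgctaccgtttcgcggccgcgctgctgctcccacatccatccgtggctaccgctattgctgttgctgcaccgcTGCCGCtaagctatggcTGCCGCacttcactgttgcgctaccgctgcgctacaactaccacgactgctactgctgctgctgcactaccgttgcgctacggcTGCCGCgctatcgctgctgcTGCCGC
Zrsr1 start island, chr11:22973228-22973477: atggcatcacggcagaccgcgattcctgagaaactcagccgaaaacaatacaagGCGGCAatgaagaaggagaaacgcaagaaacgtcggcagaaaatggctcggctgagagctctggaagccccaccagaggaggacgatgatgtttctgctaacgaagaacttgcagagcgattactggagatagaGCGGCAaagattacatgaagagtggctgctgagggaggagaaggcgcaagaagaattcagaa

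Promoters, taken as the 1 kb before and after each annotated start of a transcript, divided the 6 genes. H3K9me3 met the promoters of 3 genes, Plagl1, Grb10 and Rasgrf1. The same mark met 12.0% of all 55413 gene promoters and 26.3% of the 8494 on chromosomes 9, 10 and 11. H3K9me1 met the promoters of 3 genes, Plagl1, Ddc and Commd1, beside 21.4% of all promoters and 46.8% of those on the 3 chromosomes. H3K9me2 met that of 1 gene, Plagl1, beside 11.5% of all promoters and 28.3% of those on the 3 chromosomes. Zrsr1 had no mark at any of its 3 start sites. Grb10 and Rasgrf1 had H3K9me3 and neither other mark, a state found at 4.29% of promoters on the 3 chromosomes. With 6 genes the counts are small, and the shares of the chromosomes are the background to read them against.

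The chromosomes themselves differed. On chromosome 10, H3K9me1 lay on 56.5% of the sequence, H3K9me2 on 59.0% and H3K9me3 on 58.8%, against 16.9%, 6.24% and 8.88% for chromosome 11 and 19.5%, 11.4% and 13.9% for chromosome 9. Gene bodies followed. The median protein-coding gene of chromosome 10 had H3K9me1 on 86.8%, H3K9me2 on 48.1% and H3K9me3 on 44.4% of its bases. On chromosomes 9 and 11 the medians of H3K9me2 and H3K9me3 were 0, and those of H3K9me1 were 26.3% and 11.3%. Levels of Plagl1 are therefore set beside chromosome 10 and not beside the other loci.

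**Figure D1:**
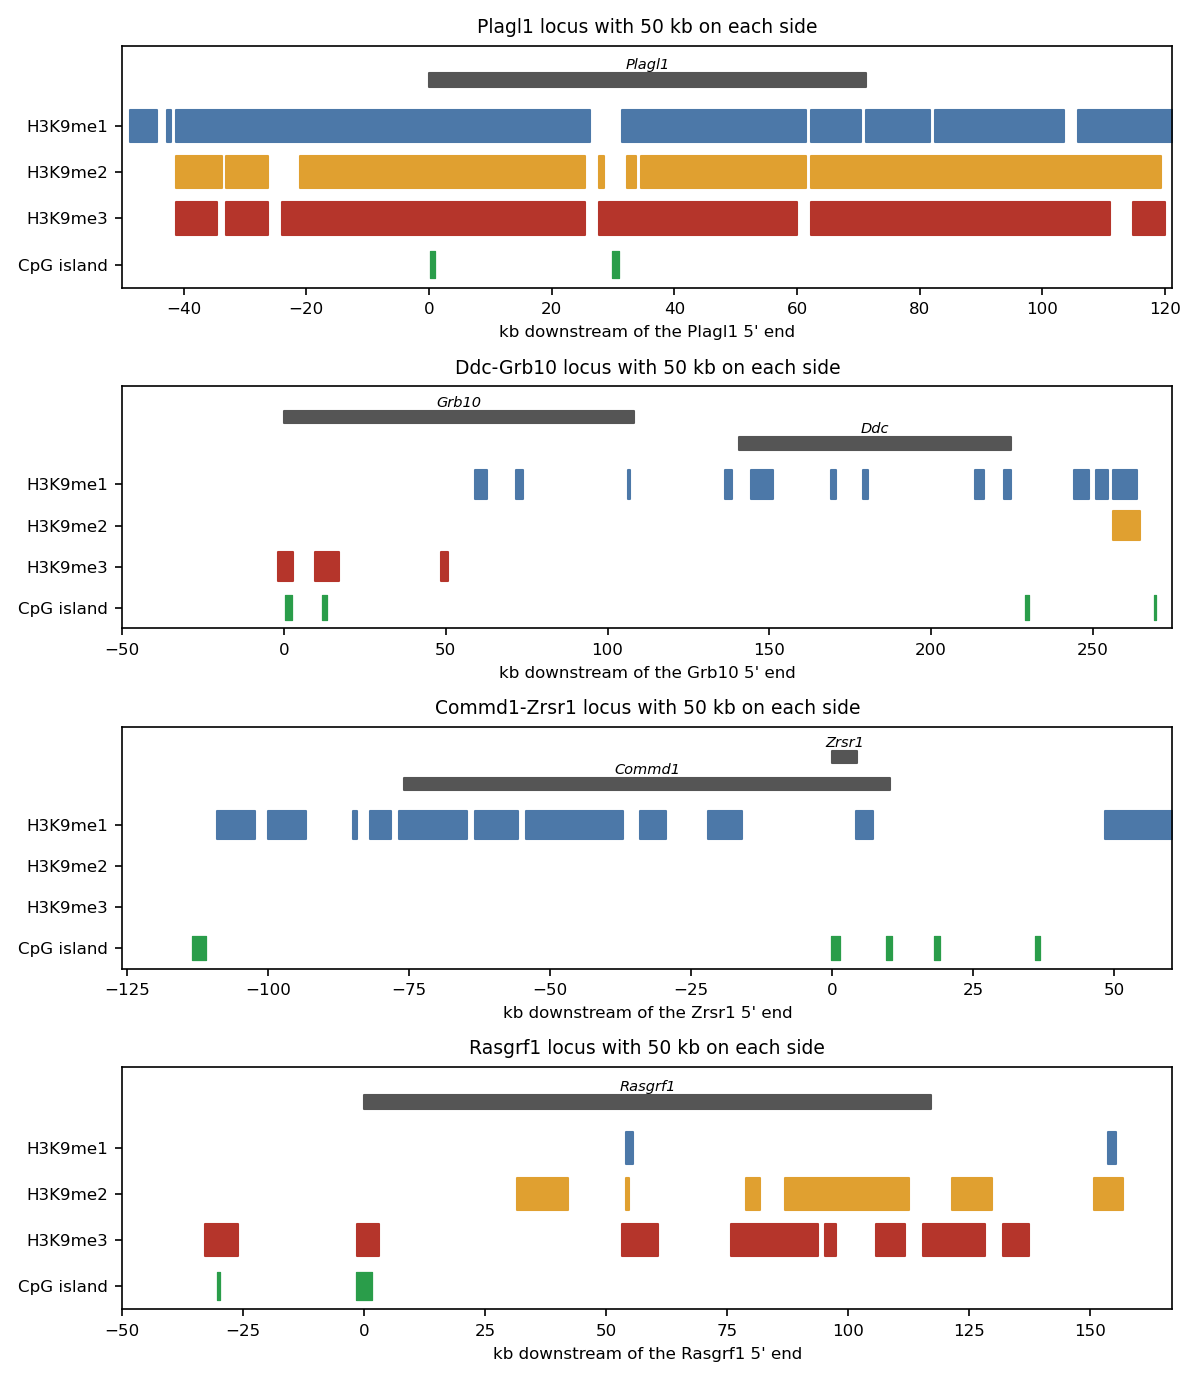
Enriched regions of the 3 marks (coloured bars) at the 4 loci with 50 kb on each side. The horizontal axis is the distance in kb downstream of the 5′ end of the gene named there, grey bars are the listed genes, and green bars are CpG islands of at least 500 bases. Marks lie over most of the Plagl1 locus (85.3% of the gene carried all 3), H3K9me3 and H3K9me1 occupy separate parts of Grb10, the Commd1-Zrsr1 locus has H3K9me1 and neither other mark, and Rasgrf1 has H3K9me3 upstream, at the 5′ end and over the part toward the 3′ end.

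Plagl1 (chromosome 10, 13060504 to 13131694, plus strand) had 11 start sites, and H3K9me1 lay on 90.6%, H3K9me2 on 89.5% and H3K9me3 on 93.7% of its 71.2 kb body. Of the 1021 protein-coding genes of chromosome 10, 57.2% had a lower H3K9me1 value, 74.1% a lower H3K9me2 value and 76.5% a lower H3K9me3 value. All 3 marks together lay on 85.3% of the gene. The flanks were alike, with 93.0%, 70.5% and 75.0% of the 50 kb upstream and 93.9%, 96.1% and 90.1% of the 50 kb downstream covered by H3K9me1, H3K9me2 and H3K9me3. The gene was thus part of a domain that ran past both of its ends, on a chromosome where such domains were common.

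Within this domain the internal promoter differed from the remainder of the gene. The 5′ end and the start sites 53.0 and 55.9 kb downstream had all 3 marks over the whole 2001 bp window. The 8 start sites between 30.2 and 30.5 kb downstream of the 5′ end had H3K9me3 over the whole window and no H3K9me2, and 7 of them had no H3K9me1. The remaining site had 13 bp of H3K9me1 at the edge of its window. The internal CpG island there, from 13090378 to 13091403 (1026 bp with 80 CpG dinucleotides), was covered to its whole length by an H3K9me3 region of 32.2 kb from 13088251 to 13120500. H3K9me1 was missing around the island for 5.25 kb, from 13086751 to 13092000, and H3K9me2 for 3.75 kb, from 13089001 to 13092750. In all, 4.21% of the gene carried H3K9me3 and neither other mark. The other island of at least 500 bases in the locus lay at the 5′ end and carried all 3 marks.

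**Figure D2:**
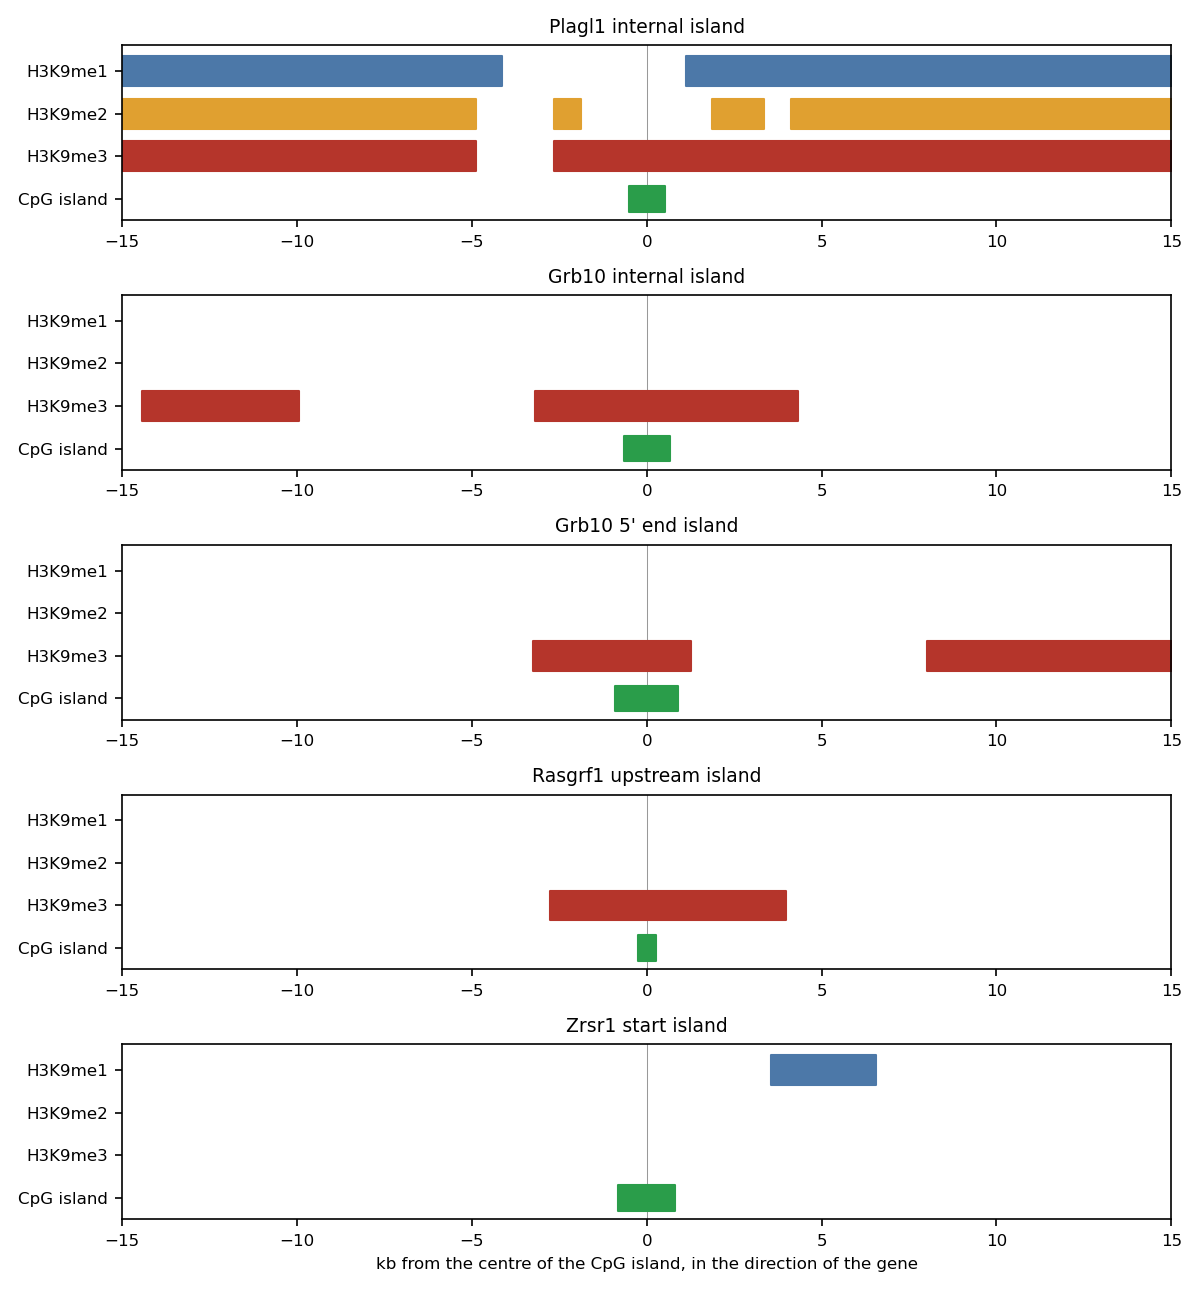
Regions of the 3 marks within 15 kb of the centre of 5 CpG islands, with distance in kb in the direction of the gene on the horizontal axis and the island in green. H3K9me3 lies over the centre of the Plagl1, Grb10 and Rasgrf1 islands and neither other mark does (a gap of 5.25 kb in H3K9me1 at Plagl1), and the Zrsr1 island has no mark over it.

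Grb10 (chromosome 11, 11930508 to 12038683, minus strand) carried 3 H3K9me3 regions in its 108 kb span, all in the part near the 5′ end. The first, of 4.5 kb from 12036001 to 12040500, lay over the 5′ end, from -1.82 to 2.68 kb relative to it. The next, of 7.5 kb from 12021751 to 12029250, lay 9.43 to 16.9 kb inside the gene and was 91.6% intronic. The last, of 2.25 kb from 11988001 to 11990250, was wholly intronic and lay 48.4 to 50.7 kb inside. None of the 3 met H3K9me1 or H3K9me2. Together they covered 11.5% of the gene, a value above that of 93.3% of the 1639 protein-coding genes of chromosome 11, of which 90.7% had no H3K9me3 at all.

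The first of these regions covered the 5′ end island of Grb10, from 12036360 to 12038158 (1799 bp, 217 CpG dinucleotides, 5 matches to TGCCGC), over its whole length. The next region covered the internal island, from 12025411 to 12026723 (1313 bp, 143 CpG dinucleotides, 4 matches), also over its whole length. Of the 9 start sites of Grb10, the 5 at the 5′ end and between 1.28 and 12.4 kb downstream had H3K9me3 over the whole window and neither other mark. The 4 start sites between 68.0 and 100 kb downstream had no mark. H3K9me1 lay in 3 regions further inside, the nearest 58.9 kb from the 5′ end, and covered 6.24% of the gene. Its free stretch around both islands ran for 218 kb, and that of H3K9me2 for 369 kb. Grb10 thus held H3K9me3 and H3K9me1 in separate intervals, and no base of the Ddc-Grb10 span had both.

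Ddc (chromosome 11, 11814101 to 11898144, minus strand), which follows Grb10 in the same orientation, had no H3K9me3 and no H3K9me2 in its 84.0 kb body. H3K9me1 covered 17.7% of it, above 55.3% of the protein-coding genes of the chromosome. The 5′ end of Ddc and a start site 0.1 kb inside were free of marks, and the gene counted as marked through 4 start sites 7.74 to 7.78 kb inside, whose windows were fully covered by H3K9me1, and through 1 site at 75.2 kb with 1671 bp. The nearest H3K9me3 region lay 89.9 kb from the Ddc 5′ end, within Grb10. In the 50 kb downstream of Ddc, H3K9me1 covered 31.7% and H3K9me2 16.5%, the latter in 1 region of 8.25 kb from 11774251 to 11782500.

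The Commd1-Zrsr1 locus had no H3K9me2 and no H3K9me3 region within the span of both genes or 50 kb of either side. Zrsr1 (chromosome 11, 22972005 to 22976496, plus strand, 4.49 kb) lay in a stretch free of H3K9me3 for 413 kb, from 22692001 to 23105250, and free of H3K9me2 for 315 kb, from 22730251 to 23045250. H3K9me1 touched its 3′ end in 1 region from 22976251 to 22979250 and covered 5.48% of the gene. The island at its start, from 22971884 to 22973503 (1620 bp, 102 CpG dinucleotides), carried no mark, and neither did a further island inside the gene from 22973575 to 22974125. Zrsr1 thus differed from Plagl1 and Grb10 in these maps, although its island is known as a maternally methylated region as well. DNA methylation of these islands was not measured here.

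Commd1 (chromosome 11, 22896136 to 22982382, minus strand) had H3K9me1 over 57.2% of its 86.2 kb body, above the value of 80.0% of the protein-coding genes of chromosome 11 and against a chromosome median of 11.3%. The 6 regions lay mainly toward the 3′ part of the gene. The widest measured 17.25 kb, from 22917751 to 22935000, and the next 12 kb, from 22895251 to 22907250, across the 3′ end. The 5′ end island, from 22981672 to 22982534, was free of marks, as were 4 of the 6 start sites. The marked sites lay 3.39 kb inside, with 1255 of 2001 bp covered by H3K9me1, and 25.4 kb inside, with 54 bp. The region near the former was the one that touched the 3′ end of Zrsr1.

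Rasgrf1 (chromosome 9, 89909908 to 90026977, plus strand) carried H3K9me3 in 3 settings, namely upstream, at the promoter and in the gene body. The upstream region, of 6.75 kb from 89877001 to 89883750, was intergenic, lay from -32.9 to -26.2 kb relative to the 5′ end and had neither other mark. The promoter region, of 4.5 kb from 89908501 to 89913000, covered all 3 start sites in full, again with neither other mark. It covered 98.9% of the 5′ end island, from 89908469 to 89911272, which at 2804 bp with 183 CpG dinucleotides was the longest island in these loci. Between these regions and for 1094 kb around the upstream island no H3K9me1 was called, and H3K9me2 was missing for 124 kb.

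The upstream H3K9me3 region of Rasgrf1 contained both elements that the known methylated region of this locus has. The CpG island, from 89879509 to 89880012 (504 bp, 31 CpG dinucleotides, 6 matches to TGCCGC), was covered in full. A tandem array followed it, from 89880176 to 89881594 (1419 bp). Its unit measured 40 bp, so that the array held 35.5 units, and shifted by 1 unit it was at most 87.8% identical to itself over 500 bp. The array held 33 CpG dinucleotides and no match to TGCCGC, and H3K9me3 covered all of it. Such an array was not particular to Rasgrf1. The same search found an array at an exon of Plagl1, from 13130071 to 13131743, with a unit of 58 bp. H3K9me2 and H3K9me3 covered 100% of that array and H3K9me1 55.6%. The commonest unit of the Rasgrf1 array, present in 9 exact copies and shown because it is the repeat in the marked region, reads on the plus strand as follows.
Rasgrf1 repeat unit: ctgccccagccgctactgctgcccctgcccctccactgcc

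In the body of Rasgrf1 H3K9me2 and H3K9me3 covered 34.0% and 32.7%, while H3K9me1 covered 1.28% in 1 region of 1.5 kb. The H3K9me2 value was above that of 90.7% and the H3K9me3 value above that of 93.6% of the 1210 protein-coding genes of chromosome 9, and the H3K9me1 value was above 33.7% of them. H3K9me3 lay at the 5′ end in the promoter region described above, which reached 3.09 kb into the gene, and next from 53.3 kb downstream of the 5′ end. The first H3K9me2 region started 31.6 kb downstream. The widest H3K9me2 region measured 25.5 kb, from 89997001 to 90022500, and was covered by H3K9me3 over 58.8%. The widest H3K9me3 region measured 18 kb, from 89985751 to 90003750, and was covered by H3K9me2 over 54.2%. Over the whole gene, 17.9% of bases had H3K9me2 and no other mark, 16.1% had H3K9me3 and no other mark, 15.4% had both, and 49.3% had none. A further H3K9me3 region of 12.75 kb crossed the 3′ end of the gene, and 33.0% of the 50 kb downstream was covered by this mark.

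**Figure D3:**
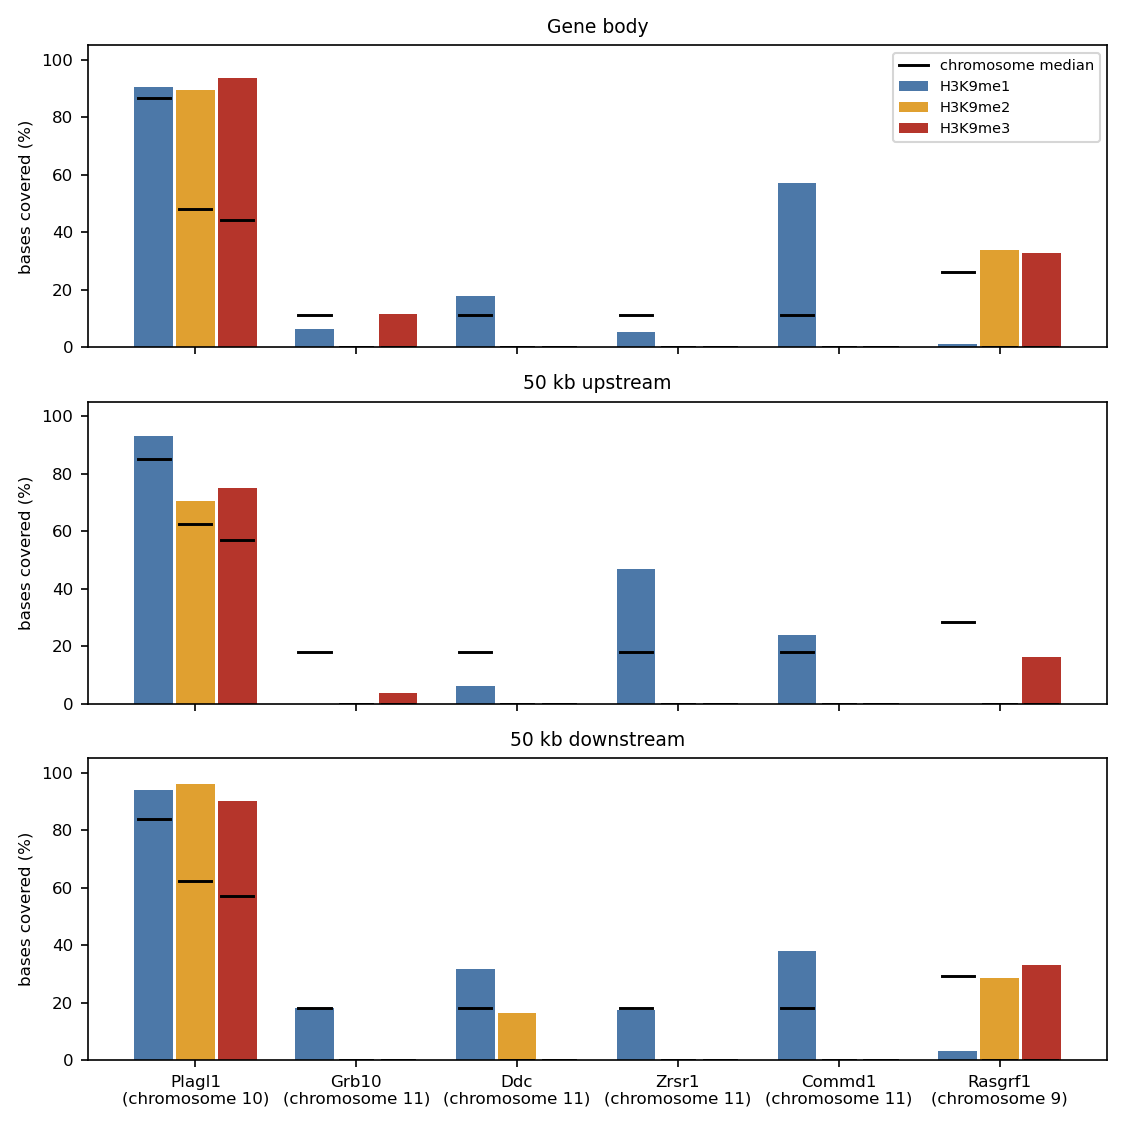
Percent of bases covered by each mark in the gene body, the 50 kb upstream and the 50 kb downstream of the 6 genes. Bars are the 3 marks in 1 region list each, so there are no error bars, and black lines are the medians of the protein-coding genes of the same chromosome. Plagl1 stands high in all 3 marks on a chromosome with high medians, Commd1 has H3K9me1 at 57.2% and the other marks at 0, and Rasgrf1 has H3K9me2 at 34.0% and H3K9me3 at 32.7% with H3K9me1 at 1.28%.

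The 9 covered percentages of each gene, those of promoter, body and flanks for each mark, were compared with those of all 21938 protein-coding genes by Euclidean distance in percentage points. Zrsr1 had the closest match, Tpx2 on chromosome 2 at 0.251, followed by Ube2v1 at 1.63. Ddc was closest to Pja2 (4.28) and Krit1 (5.10), and Commd1 to Tbc1d1 (4.65) and Pde4a (5.21). Grb10 had no neighbour nearer than Ntrk2 (11.8) and Kcna6 (13), and Plagl1 none nearer than Adgrb1 (22.2) and Ccdc28a (28.4). Rasgrf1 stood farthest from any other gene, with Barx2 at 26.9 and Cyp2c69 at 30.8. These distances are a description of shape in the same maps.

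Genes around the loci were read in the same way. The 44 neighbours were the 20 genes within 50 kb and the 3 nearest protein-coding genes beyond each end, which in the Ddc-Grb10 locus reached to Vstm2a at 4219 kb. H3K9me1 met 15 of their promoters, H3K9me2 13 and H3K9me3 14, beside the shares of 46.8%, 28.3% and 26.3% on the 3 chromosomes. A further 18 had none, and the share of all promoters with no mark was not counted, here or for each locus. H3K9me3 with neither other mark was found at 5 of the 44, beside 4.29% of promoters there. Since the chromosomes differ, each locus is also set beside its own chromosome.

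Around Plagl1 all 10 neighbours had H3K9me1 at the promoter, 6 had H3K9me2 and 4 had H3K9me3. On chromosome 10 these marks met 74.8%, 64.5% and 61.4% of 2630 promoters, so the marking of the neighbours was common there. Zc2hc1b, 17.8 kb away, and Phactr2, 76.0 kb away, had all 3 marks. Sf3b5, which encodes a subunit of the SF3B splicing complex, and Fuca2, a fucosidase gene, had H3K9me1 and H3K9me2. Ltv1, Stx11, the utrophin gene Utrn and the peroxisome gene Pex3 had H3K9me1 and neither other mark. None of the 10 had H3K9me3 with neither other mark, beside 3.04% of promoters on the chromosome, so with 10 genes this is near the background. The count takes all start sites of a gene together, and by it Plagl1 does not have this state either. Gm27741, beside the internal Plagl1 island, had H3K9me3 over 100% of its body and neither other mark there. Its promoter window also met H3K9me1 (40.8%) and H3K9me2 (3.35%).

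Around Ddc and Grb10, 6 of 11 neighbours had H3K9me3 at the promoter, and 4 of these had neither other mark. The shares on chromosome 11 (3011 promoters) were 7.51% and 3.62%. H3K9me1 met 2 and H3K9me2 met 3 of the 11 neighbours, beside 31.9% and 8.40% on the chromosome. With 11 genes, some of them far from the locus, no test was made of these counts. Ikzf1, the gene of the lymphoid transcription factor Ikaros, lay 41.2 kb from the locus and had H3K9me3 over 94.3% of its promoter windows. The others with H3K9me3 and neither other mark were Spata48, the zona pellucida binding protein gene Zpbp and Pom121l12, of which the last lay 2561 kb away. Spata48 and Zpbp run in opposite directions from 5′ ends at 11462094 and 11462408. Their promoter windows overlap, so these genes are not separate observations. Cobl, an actin nucleator gene 198 kb away, had H3K9me2 and H3K9me3, and Vstm2a had all 3 marks. Fignl1, 5.14 kb from Ddc, had no mark.

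Around Commd1 and Zrsr1, H3K9me1 met 3 of 13 neighbours, among them Fam161a and Ahsa2, and the other 10 had no mark, on the same chromosome with shares of 31.9%, 8.40% and 7.51% for the 3 marks. Cct4, which encodes a chaperonin subunit and lies 8.14 kb from the locus, the nuclear export gene Xpo1, Usp34 and B3gnt2 were among the unmarked. The island at B3gnt2, from 22858698 to 22860112, held 4 matches to TGCCGC and had no mark either. H3K9me2 and H3K9me3 were thus missing from the promoters of all 13 neighbours as well.

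Around Rasgrf1, no neighbour of 10 had H3K9me1 at its promoter, while 4 had H3K9me2, 4 had H3K9me3 and 5 had none. On chromosome 9 the marks met 36.7%, 15.8% and 13.7% of 2853 promoters, and H3K9me3 with neither other mark met 6.13%, beside 1 of the 10 here. Gm23759 and Gm17944, which are not protein-coding, both lay under 1 H3K9me2 region and 1 H3K9me3 region. They are therefore not separate observations. Of the 7 protein-coding neighbours, 2 had H3K9me2 and 2 had H3K9me3. Adamts7, a metalloproteinase gene 136 kb away, had H3K9me3 and neither other mark over 73.6% of its windows. Minar1 had H3K9me3 over 71.5% and H3K9me2 over 37.1%. The cathepsin H gene Ctsh, 27.2 kb away, had H3K9me2 over 28.6%. Morf4l1, Tmed3, Ankrd34c and Tbc1d2b had no mark.

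CpG islands were found by a sequence rule (windows of 200 bases, GC of at least 50%, observed to expected CpG of at least 0.6) in the loci with 50 kb on each side. Of 70 islands, 17 met H3K9me1, 11 met H3K9me2 and 24 met H3K9me3, beside 40.4%, 25.3% and 30.3% of 29435 islands on chromosomes 9, 10 and 11. The pooled shares hide the chromosomes, since H3K9me1 met 30.2%, 67.4% and 23.6% of islands on chromosomes 9, 10 and 11. It met 1 of 20 islands at Rasgrf1 and 8 of 10 at Plagl1. On chromosome 11 it met 3 of 22 at Ddc-Grb10 and 5 of 18 at Commd1-Zrsr1. H3K9me3 with neither other mark was found at 14 of the 70 islands, beside 8.65% on the 3 chromosomes. These 14 were 8 at Rasgrf1, 4 in Grb10 and 2 in Plagl1. The shares with this state were 13.3%, 4.75% and 8.44% on chromosomes 9, 10 and 11, beside 8 of 20 islands at Rasgrf1 and 2 of 10 at Plagl1. On chromosome 11 they were 4 of 22 at Ddc-Grb10 and 0 of 18 at Commd1-Zrsr1. With the longer rule (500 bases, GC of 55%, ratio of 0.65) 13 islands remained in the loci, of which 1 met H3K9me1, 1 met H3K9me2 and 6 met H3K9me3. The shares of 3667 islands on the 3 chromosomes were 18.5%, 11.7% and 18.7%. H3K9me3 with neither other mark was found at 5 of the 13 (38.5%), beside 7.74%, and these 5 were the islands of Plagl1, Grb10 and Rasgrf1 named above. By the longer rule the shares of chromosomes 9, 10 and 11 were 11.3%, 6.99% and 5.78%. The islands of a locus lie together, and those under 1 region are not independent.

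The letters TGCCGC were then counted on both strands in 1 kb at the centre of each of the 3667 islands. At least 1 match was found in 46.9% of the islands, at least 4 in 2.21% and at least 6 in 0.218%, or 8 islands. The Plagl1 internal island and the Rasgrf1 upstream island were among these 8, with 6 matches each. The others were at the start sites of Cspg5, Sirt1, Phyhipl, Osbpl8, Alkbh5 and Shisa6. Of the 8, 3 had H3K9me3 with neither other mark, namely Plagl1, Rasgrf1 and Shisa6, and 3 had no mark, namely Sirt1, Osbpl8 and Alkbh5. The 2 islands of Grb10 held 4 matches each in 1 kb. The Rasgrf1 promoter island, with H3K9me3, and the Zrsr1 start island, without a mark, held none in that window. H3K9me3 with neither other mark was found on 210 of the 1947 islands with no match (10.8%) and on 74 of the 1720 with at least 1 match (4.30%), beside 7.74% of all islands. The share was thus lower on islands with at least 1 match than on those with none, but not at every number of matches. It was 4.25% at exactly 1 match, 2.58% at 2, 5.88% at 3, 10.5% at 4 (6 of 57) and 0 of 16 at 5. At 4 or more matches it was 11.1% (9 of 81), close to the 10.8% with no match, and these 9 include islands of Plagl1, Grb10 and Rasgrf1. The 3 of 8 at 6 or more matches is a small count that includes the listed loci.

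**Figure D4:**
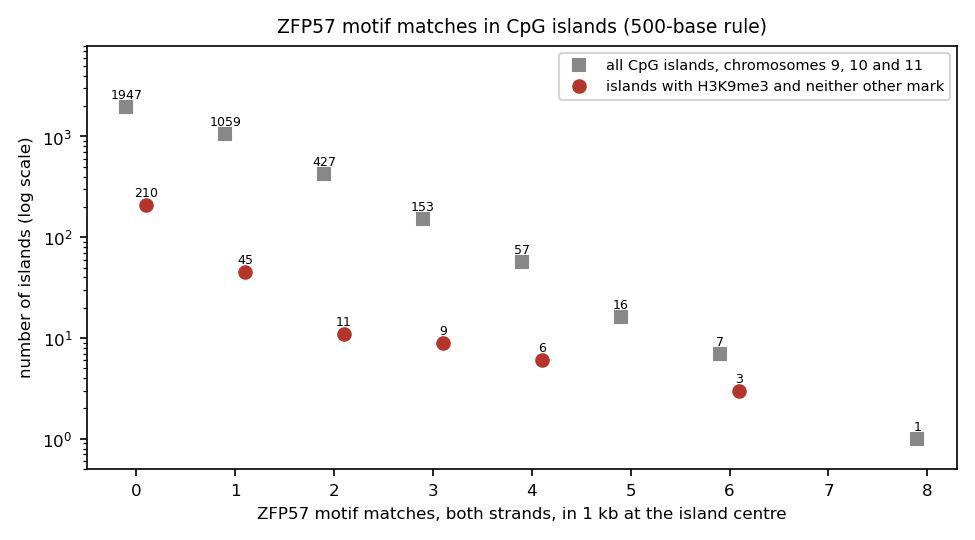
Number of CpG islands on chromosomes 9, 10 and 11 (log scale) by the number of ZFP57 motif matches in 1 kb at the island centre, for all 3667 islands (grey squares) and for those with H3K9me3 and neither other mark (red circles), with counts printed beside the points. The 3 red islands at 6 matches are those of Plagl1, Rasgrf1 and Shisa6.

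Other imprinted genes gave a wider setting. Of 57 such genes, H3K9me1 met the promoters of 9, H3K9me2 of 6 and H3K9me3 of 12, and 42 had no mark. Among all genes the shares of the 3 marks were 21.4%, 11.5% and 12.0%, and the share with no mark was not counted. The 9 chromosomes covered to at least 5% by every list, which include those of the 4 loci, held 11 of them. H3K9me3 met 7 of these 11, namely Igf2r, Airn, Slc22a2 and Slc22a3 of the Igf2r cluster and Peg13, Kcnk9 and Trappc9 of the Peg13 cluster. There, 25.3% of all promoters had this mark. H3K9me1 met 9 and H3K9me2 met 6 of the 11, beside 45.6% and 26.4%. Peg13, a noncoding RNA gene, had H3K9me3 with neither other mark, like Grb10 and Rasgrf1. The other chromosomes held 46 of the genes, of which 41 had no mark. None of the 46 had H3K9me1 or H3K9me2 at its promoter. These marks were rare there, at 5.04% and 1.34% of all promoters, so their absence is near the background. H3K9me3 met 5 of the 46, namely Gnas, Nnat with its host gene Blcap, Mest and Dio3, beside 2.96% of all promoters there. Genes of 1 cluster can share a region, so these counts are not of independent loci.

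Genes that set or keep imprints were a last group. Of 10 (Zfp57, Zfp445, Trim28, Setdb1, Dnmt1, Dnmt3a, Dnmt3l, Uhrf1, Dppa3 and Ctcf), 6 had no mark at the promoter. The share of all promoters with no mark was not counted. Of the 6, 4 lay outside the 9 chromosomes covered to at least 5% by every list. There H3K9me1 met 5.04% of all promoters. The maintenance methyltransferase gene Dnmt1, its partner Uhrf1 and the insulator gene Ctcf had H3K9me1 and neither other mark. Dnmt3l, which encodes a germline cofactor of DNA methylation and lies on chromosome 10, had all 3 marks. H3K9me1 thus met 4 of the 10, beside 21.4% of all promoters, and these 4 were among the 6 on the broadly covered chromosomes, where the share was 45.6%. H3K9me2 and H3K9me3 met 1 of the 10 each, close to the shares of 11.5% and 12.0% of all promoters.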

How the data were processed

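ChIP-seq reads of 8 samples (input, H3K9me1, H3K9me2 and H3K9me3 of wild-type MEFs, 2 replicates each) were aligned by the authors to mm10 (GRCm38) with BWA 0.7.1, and regions were called with histoneHMM, a hidden Markov model over bins. How replicates and input entered the call, and its threshold, is not given in the sources used here. The deposited lists give chromosome, start and end (positions in bp, no score or count), with 42704, 29119 and 27108 regions. All positions lay on a 750 bp grid with starts read as 1-based. The depth within each region is unknown, and no interval or test was possible.

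Gene models were GENCODE M21, and the sequence was GRCm38. A promoter (1 kb on either side of any annotated start) was marked where a region met it by at least 1 bp. Gene bodies and 50 kb flanks were given as percent of bases covered, beside the protein-coding genes of the same chromosome. Tandem arrays were stretches at least 70% identical to themselves at a lag of 10 to 100 bp in 500 bp windows. Overlap counting was tested on simulated data. Genes named were the 6 listed genes, neighbours with a gene name, other imprinted genes with H3K9me3 at the promoter, and the 2 genes nearest in coverage. The genes that set or keep imprints were named as well. The 6 other islands with at least 6 motif matches were named after their values were seen. The members and lists were chosen with earlier results of these data known. Python 3.11.15, NumPy 2.4.6 and Matplotlib 3.10.9 were used.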

Additional observations from a re-analysis of the deposited data

How the results depend on the processing

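Of the 18 pairs of listed gene and mark at promoters, none changed with windows of 500 bp or 2 kb, regions of at least 2 kb, regions up to 5 kb apart joined, 50% of the window covered or starts read as 0-based. Counting the 5′ end of each gene alone removed H3K9me1 from Ddc and Commd1, which left 1 gene of 3. With regions of at least 5 kb Rasgrf1 lost H3K9me3 at its promoter. The H3K9me3 region of 4.5 kb over the Grb10 5′ end is also below this width. Grb10 stayed marked through its internal region of 7.5 kb. At this setting the H3K9me1 share of the listed gene bodies was 24.2% in place of 29.4%, and that of the flanks 30.5% in place of 35.4%. Neighbours with H3K9me2 and H3K9me3 fell to 8 each from 13 and 14. Neighbours with H3K9me2 were also 8 when 50% of the window had to be covered. The H3K9me3 share of the flanks was 34.4% with 25 kb and 22.7% with 100 kb in place of 27.3%. The longer island rule gave 1, 1 and 6 islands with H3K9me1, H3K9me2 and H3K9me3 in place of 17, 11 and 24, and 5 with H3K9me3 and neither other mark in place of 14, which follows from the smaller number of islands it finds. No paired analysis was possible because each mark came as 1 list for both replicates, and leaving out a replicate was not run for the same reason. Presence in a list depends on a threshold that is not known here, and a stretch without a region may hold signal below it.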
